A study of Mus musculus with 6 samples.

Results

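The genes described here were the protein-coding members of the forkhead (Fox) and SOX transcription factor families in the RNA-seq of isolated mouse Sertoli cells. They were chosen by symbol, as every gene whose name began with Fox, a letter from a to s and a number, or with Sox and a number, apart from 2 Sox names that the rule left out. Of 28262 listed genes, 48 were members, 35 Fox and 13 Sox genes, lying on 18 chromosomes. The 3 control libraries were made from Pa1F/F Sertoli cells, which carry floxed Pa1 alleles, and the 3 knockout libraries from Pa1-/- Sertoli cells, in which these alleles are deleted by Cre recombinase under the promoter of Amh, a gene of Sertoli cells in the young testis. All mice were C57BL/6 and untreated, the testes were taken at 20 days of age, and cells of both genotypes were cultured at 34 °C with 5% CO2 before total RNA was extracted. PA1 is a subunit of the MLL3/4 complexes, which methylate histone H3 at enhancers. The study's methods call the samples biological replicates, and the labels do not say whether the 3 libraries of a genotype came from separate animals, so p-values measure the spread between these libraries. The genotype of a library rests on its label, since Pa1 itself was not analysed here.

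Forkhead proteins bind DNA through the winged-helix forkhead domain, and SOX proteins bind the minor groove and bend DNA through an HMG box. In the gonads, members of both families take part in the choice between the testis and ovary programs: FOXL2 maintains granulosa cells of the ovary, while SOX factors start and keep the Sertoli cell program. Other members serve in most tissues, such as the FOXO factors, which PI3K and AKT signalling holds out of the nucleus, or FOXM1, which drives genes of mitosis. The Pfam names deposited with the table list a forkhead domain for 35 of the 35 Fox members and an HMG box for 10 of the 13 Sox members, and the other 3 are listed under a SOX transactivation domain.

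The sequence in front of the genes is shown for 4 members whose levels differed between the genotypes. The reason is that the study proposes that PA1 acts at the promoters of the genes it regulates. Promoter windows of 300 bases, from 250 before to 50 after a start site, were taken from RefSeq (GRCm38.p6, the build of the gene coordinates) for 24 of the 48 members, and 12 of these 24 passed the filter on low counts. Capitals mark the CCAAT box, which reads ATTGG on the opposite strand, and the GC box, which is GGGCGG on the strand of the gene and CCGCCC on the opposite strand. Each line reads 5′ to 3′ on the strand of the gene. Foxc1 lies at chr13:31806396-31806695 (plus strand) and Foxo3 at chr10:42276646-42276945 (minus strand), and both were lower in knockout cells. Foxp4 lies at chr17:47924583-47924882 (minus strand) and was lower, and Foxk2 lies at chr11:121259737-121260036 (plus strand) and was higher.
Foxc1: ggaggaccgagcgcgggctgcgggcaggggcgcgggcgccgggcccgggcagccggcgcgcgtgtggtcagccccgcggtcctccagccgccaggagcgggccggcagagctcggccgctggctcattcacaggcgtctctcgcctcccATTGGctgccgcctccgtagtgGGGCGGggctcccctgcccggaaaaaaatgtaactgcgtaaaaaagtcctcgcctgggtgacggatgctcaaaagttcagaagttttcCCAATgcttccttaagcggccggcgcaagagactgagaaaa
Foxo3: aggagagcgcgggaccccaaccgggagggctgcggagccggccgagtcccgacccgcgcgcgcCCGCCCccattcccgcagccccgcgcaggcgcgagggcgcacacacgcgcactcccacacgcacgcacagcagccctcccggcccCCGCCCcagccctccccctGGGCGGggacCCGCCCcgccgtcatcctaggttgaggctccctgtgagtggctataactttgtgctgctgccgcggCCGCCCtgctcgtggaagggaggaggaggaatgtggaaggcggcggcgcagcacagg
Foxp4: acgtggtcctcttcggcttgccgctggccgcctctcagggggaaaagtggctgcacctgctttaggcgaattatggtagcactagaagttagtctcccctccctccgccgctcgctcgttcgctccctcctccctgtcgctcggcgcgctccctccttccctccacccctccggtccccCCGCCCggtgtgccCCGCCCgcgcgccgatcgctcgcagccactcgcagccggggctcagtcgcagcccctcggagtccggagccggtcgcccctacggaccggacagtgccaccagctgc
Foxk2: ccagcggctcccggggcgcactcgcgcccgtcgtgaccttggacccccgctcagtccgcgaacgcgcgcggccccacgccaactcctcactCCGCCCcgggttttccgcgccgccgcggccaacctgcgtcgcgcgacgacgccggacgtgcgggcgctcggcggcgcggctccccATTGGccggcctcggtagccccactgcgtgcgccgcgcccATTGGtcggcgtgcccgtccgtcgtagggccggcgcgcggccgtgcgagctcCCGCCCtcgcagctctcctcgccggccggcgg

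These windows were rich in G and C, from 67.3% in Foxc1 and 70.3% in Foxp4 to 75.0% in Foxo3 and 79.3% in Foxk2. Foxo3 held 5 GC boxes and no CCAAT box, Foxp4 held 2 GC boxes, and Foxc1 held 2 CCAAT boxes and 1 GC box. Across the windows of the 12 tested members, a CCAAT box was present in 3 of the 6 windows of lower members, in 2 of the 5 of members not past the threshold and in the single window of a higher member, Foxk2. It was present in 37.4% of all 32851 RefSeq windows. The GC box was present in 4 of 6, 4 of 5 and again in Foxk2, and in 35.7% of all windows. The AP-1 motif TGANTCA, whose own reverse complement is the same pattern, was in none of the 12 windows and in 7.81% of all windows. A forkhead motif (TGTTTAC, either strand) was found only in the window of Sox12, and a SOX motif (ACAATG, either strand) in none of the 12, against 3.65% and 12.6% of all windows. None of the motifs searched for contains another. The matches describe letters within these windows and say nothing of binding.

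Total counts on genes ranged from 13203757 to 16231443 per library, so that 3 counts, taken as the floor, corresponded to 0.185 to 0.227 CPM (counts scaled to library size). Normalised counts, used throughout for comparisons of a gene between libraries, are counts scaled to a common effective library size by edgeR's TMM method. Levels per length, used for comparisons between genes, are RPKM values (reads per kilobase of exon, scaled to library size). The lengths cover the exons of all transcripts of a gene, in an annotation other than the one counted. Levels, shares and ratios between genes are therefore approximate. Values are given for control replicates 1, 2 and 3 and then for knockout replicates 1, 2 and 3. Within a genotype the libraries were unevenly spaced: control replicates 1 and 3 differed by a median of 0.07 log2 units and knockout replicates 1 and 2 by 0.06, whereas pairs with control replicate 2 or knockout replicate 3 differed by 0.11 to 0.18. The chi-square per degree of freedom, 1 for counting error alone, was 2.22 and 1.66 for these close pairs and 18.3 to 30.5 for the others. Whether the close pairs are separate samples was not tested. Calls from 3 libraries per genotype may therefore rest on fewer independent ones. Knockout replicate 3 was the highest or lowest of its group for 23 of the 25 tested members, and control replicate 2 for 20 of 25. Members whose call or direction changed without knockout replicate 3 are given with and without it. Of the defining Sertoli cell markers, Wt1 held 4976 to 5155 normalised counts in control and 4493 to 6084 in knockout libraries, and did not pass the test. Gata4 was lower in knockout cells, with 7162 to 8182 in control and 4084 to 4371 in knockout libraries. Of the 17 tested Sertoli cell markers, 8 were lower and 2 higher at an adjusted p under 0.05 in edgeR, against 17.1% and 18.2% of all tested genes, at summed normalised counts of 254760 to 258358 in control and 152871 to 196328 in knockout libraries (9 lower and 4 higher at an unadjusted p under 0.05, and the same numbers by DESeq2). These shares hold for the edgeR counts at an adjusted p only. Amh, an early Sertoli cell hormone, had 186, 254 and 179 normalised counts in control cells and 43.9, 48.4 and 365 in knockout cells. Trf, Rhox5 and Tsx, which mark maturing Sertoli cells, had at most 6, 16 and 12 reads in any library.

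Of the 48 members, 25 passed the filter on low counts (19 Fox and 6 Sox), and no member passed through the reads of only 1 genotype. At an adjusted p under 0.05 in the quasi-likelihood test of edgeR, with p-values adjusted by Benjamini-Hochberg over 14919 genes, 15 of the 25 tested members (60.0%) differed between the genotypes, as compared with 35.3% of all tested genes. Foxc1, Foxo6, Foxo3, Foxo1, Foxk1, Foxp4, Sox13 and Sox4 were lower in knockout cells, 8 members against 17.1% of all genes. Foxj1, Foxm1, Foxp1, Foxk2, Foxs1, Foxn2 and Sox5 were higher, 7 members against 18.2% of all genes. The median log2 fold change of knockout over control was -0.06 over the tested members and 0.00 over all tested genes. A 2-fold change or more was met by 4 members, as compared with 12% of all tested genes: Foxc1 and Foxo6 were lower (6.56% of all genes) and Foxj1 and Foxm1 were higher (5.44% of all genes). In edgeR's test against a 2-fold change (glmTreat), Foxc1 was called lower, as were 2.05% of all tested genes, and Foxo6, Foxj1 and Foxm1 did not pass, with 1.56% of all genes called higher. Without knockout replicate 3, 5 of 26 tested members were lower by at least 2-fold, against 7.92% of all genes in that fit. Among these, Foxc2 and Sox11 had fewer than 10 reads in each knockout library left. They passed the filter there only through the control libraries, where they were high. With the counts of the close control replicates 1 and 3 summed, and those of knockout replicates 1 and 2, calls remained for Foxc1, Foxo3, Foxk1 and Foxj1, that is 3 lower and 1 higher of 30 tested members, against 4.22% and 4.43% of all genes in that fit (8.66% in either direction). The normalised counts of the genotypes did not overlap for 15 of the 25 tested members, against 52.4% of all tested genes. In bulk libraries, fewer cells of a type and less RNA per cell cannot be told apart. With 3 libraries in each genotype, an exact two-sided permutation test of a single gene cannot give a p under 0.1, and the p-values below come from the fit across all genes.

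**Figure D1:**
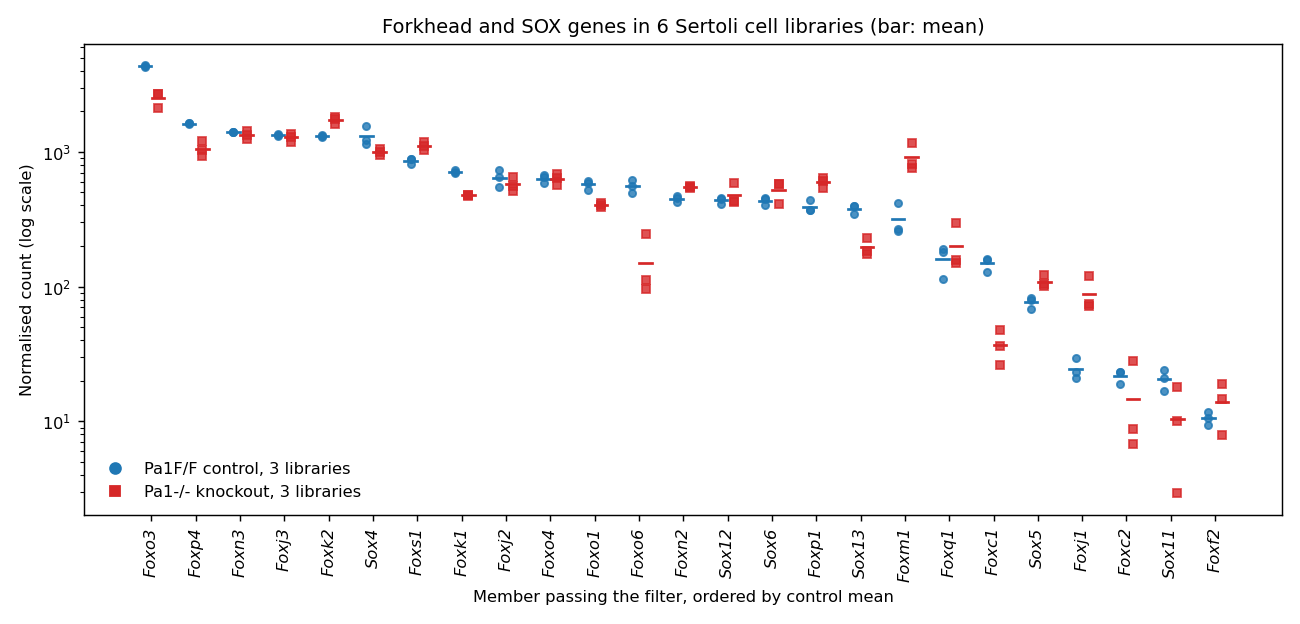
Normalised counts (log axis) of the 25 tested Fox and Sox members in 3 control (circles) and 3 knockout libraries (squares), with a bar at each group mean. Foxc1 and Foxo6, lower in knockout cells, and Foxm1 and Foxj1, higher in knockout cells, were the members past the test with a fitted change of at least 2-fold.

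**Figure D2:**
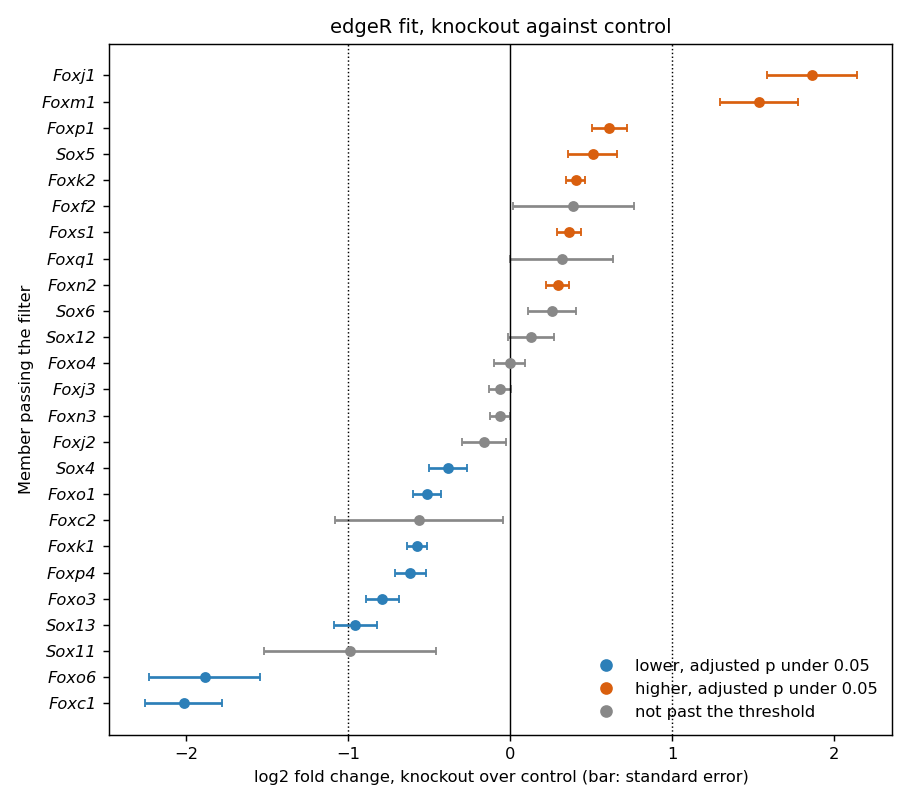
log2 fold changes of knockout over control from edgeR for the 25 tested members, with bars of 1 standard error and dotted lines at a 2-fold change. Blue members were lower and orange members higher at an adjusted p under 0.05, from -2.02 for Foxc1 to 1.86 for Foxj1.

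The FOXC factors pattern mesoderm, vessels and the eye, and FOXC1 is also needed for germ cell migration and follicle growth. Foxc1 (ENSMUSG00000050295, chr13:31806633-31812476, GRCm38) had 160.4, 129 and 157 normalised counts in control cells and 47.8, 36.0 and 26.1 in knockout cells. Every knockout library was below every control library. The log2 fold change was -2.02 (SE 0.24, adjusted p = 0.00135), a 4.05-fold lower level, and it ranged from -2.26 to -1.82 when single libraries were left out. Its paralogue Foxc2 was low, with 19.0, 23.2 and 23.1 normalised counts in control cells and 8.79, 6.76 and 28.1 in knockout cells. Knockout replicate 3 was the highest of all 6 libraries, and the test did not pass (log2 fold change -0.57, SE 0.52, adjusted p = 0.432). Without knockout replicate 3 the log2 fold change of Foxc2 was -1.46 (adjusted p = 0.0119), in a fit that it entered through the control libraries only. Foxc1 lies in a cluster on chromosome 13 with Foxq1 and Foxf2, and these 2 members did not pass the test. Gmds, an enzyme gene on the other side of Foxc1, was higher in knockout cells (log2 fold change 0.92, SE 0.24, adjusted p = 0.0252). Foxq1, known for its role in hair, had 189, 113 and 181 normalised counts in control and 149, 158 and 296 in knockout cells (log2 fold change 0.32, SE 0.32, adjusted p = 0.476, and -0.07 without knockout replicate 3). Foxf2, a factor of gut and craniofacial mesenchyme, had 9.44 to 11.8 in control and 7.89 to 19.0 in knockout cells (0.39, SE 0.37, adjusted p = 0.457). The ratio of the per-length levels of Foxc1 over Foxq1 was 0.787 ± 0.134 (SD, n = 3) in control and 0.176 ± 0.0969 in knockout cells, without overlap.

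The FOXO factors act downstream of insulin signalling on stress resistance, metabolism and apoptosis. FOXO3 keeps primordial follicles dormant and FOXO1 is used by spermatogonial stem cells. Foxo3 was the most abundant of the 4 by level per length. It had 4246, 4306 and 4386 normalised counts in control cells and 2700, 2683 and 2100 in knockout cells. The control libraries lay within a narrow range and all knockout libraries lay below it, with a log2 fold change of -0.79 (SE 0.10, adjusted p = 0.00181). Foxo1 had 521, 613 and 587 normalised counts in control cells and 388, 416 and 401 in knockout cells. The groups did not overlap, and the log2 fold change was -0.51 (SE 0.09, adjusted p = 0.00498). Foxo6 (ENSMUSG00000052135, chr4:120267079-120287349, minus strand), best known from the brain, had 555, 623 and 495 normalised counts in control cells and 111, 95.8 and 244 in knockout cells. All 3 knockout libraries were below the controls, and knockout replicate 3 lay between the other knockout libraries and the controls. The log2 fold change was -1.89 (SE 0.34, adjusted p = 0.00660), a 3.70-fold lower level, and -2.42 without knockout replicate 3. Foxo4, by contrast, had 646, 584 and 671 normalised counts in control and 572, 641 and 683 in knockout cells. These ranges overlapped almost entirely (log2 fold change -0.00, SE 0.09, adjusted p = 0.980).

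Summed per length, the FOXO genes stood at 54.6 ± 0.65 RPKM in control and 35.2 ± 0.95 in knockout cells (SD, n = 3). Foxo3 made up 58.2% of this sum in control and 52.2% in knockout cells, Foxo4 22.3% and 34.5%, Foxo6 11.8% and 4.98%, and Foxo1 7.71% and 8.37%. The ratio of Foxo4 over Foxo3 was 0.382 ± 0.026 in control and 0.673 ± 0.154 in knockout cells, without overlap. That of Foxo6 over Foxo3 was 0.203 ± 0.025 and 0.101 ± 0.071, and knockout replicate 3, at 0.182, lay within the control range.

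**Figure D3:**
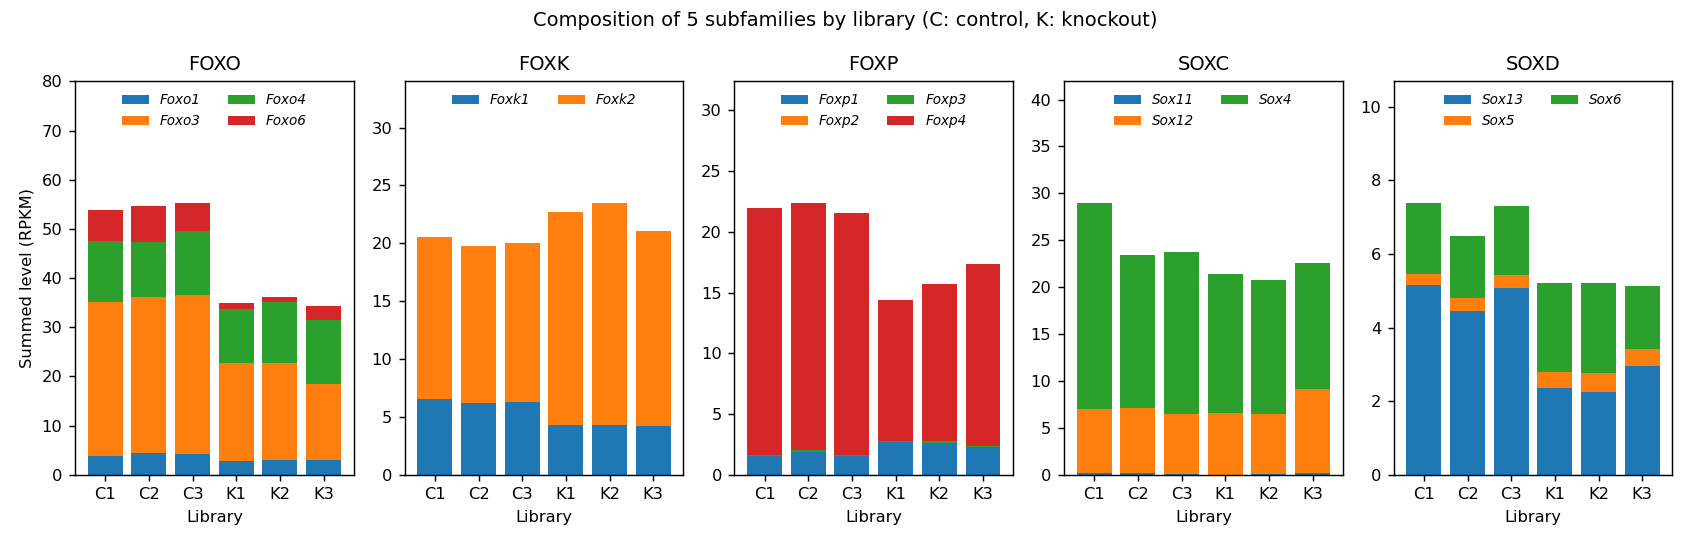
Stacked levels (RPKM) of the genes of 5 subfamilies in each control (C) and knockout (K) library, each panel on its own axis from 0. The FOXO sum was lower in all knockout libraries and that of SOXD was 6.50 to 7.38 in control and 5.14 to 5.21 in knockout libraries, while Foxk2 took a larger part of FOXK.

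In each of the next pairs of paralogues, 1 member fell and the other rose. FOXK1 and FOXK2 bind related sites and repress starvation genes. Foxk1 had 733, 693 and 707 normalised counts in control and 482, 481 and 468 in knockout cells, with a log2 fold change of -0.58 (SE 0.06, adjusted p = 0.00109). Foxk2 had 1335, 1289 and 1303 in control and 1755, 1825 and 1611 in knockout cells, with a log2 fold change of 0.40 (SE 0.06, adjusted p = 0.00336). The libraries of the genotypes did not overlap for either gene. The ratio of their per-length levels, Foxk1 over Foxk2, was 0.463 ± 0.005 in control and 0.236 ± 0.012 in knockout cells, and the summed level went from 20.1 ± 0.43 to 22.4 ± 1.21. FOXP factors act as repressors in lung, heart and lymphocyte development. Foxp4 had 1630, 1632 and 1605 normalised counts in control and 933, 1035 and 1206 in knockout cells (log2 fold change -0.62, SE 0.09, adjusted p = 0.00348). Foxp1 had 369, 439 and 370.2 in control and 645, 613 and 540.1 in knockout cells (0.61, SE 0.11, adjusted p = 0.00586). Foxp4 was the main FOXP gene in both genotypes, at 91.9% of the summed per-length level in control and 83.0% in knockout cells, while Foxp1 went from 7.51% to 16.1%. The ratio of Foxp1 over Foxp4 was 0.0818 ± 0.0079 in control and 0.195 ± 0.041 in knockout cells, without overlap. The FOXP sum ranged from 21.6 to 22.4 RPKM in control and from 14.4 to 17.4 in knockout libraries. Of the members described so far and below, Foxp1, Foxp4, Foxm1 and Sox5 passed the test and overlap other listed genes, which had at most 4 reads in any library. The handling of reads that fall on more than 1 gene was not tested.

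Of the 25 members past the filter, Foxj1 and Foxm1 had the largest rise. Foxj1 (ENSMUSG00000034227, chr11:116330704-116335399, minus strand), the master regulator of motile cilia, was low in control cells, with 20.8, 23.2 and 29.4 normalised counts, and had 74.2, 72.1 and 120.2 in knockout cells. All knockout libraries were above all controls, with knockout replicate 3 the highest. The log2 fold change was 1.86 (SE 0.28, adjusted p = 0.00320), a 3.63-fold higher level, and the per-length level went from 0.532 to 1.93. Its relatives Foxj2 (-0.16, SE 0.14, adjusted p = 0.389) and Foxj3 (-0.06, SE 0.07, adjusted p = 0.510) did not pass the test. Foxj3 overlaps Frg2f1 on the opposite strand, and the strand setting of the counting is not given in the sources used here. Foxm1 (ENSMUSG00000001517, chr6:128362967-128376146) had 259, 418 and 267 normalised counts in control and 754, 816 and 1168 in knockout cells. Control replicate 2 was the highest control and knockout replicate 3 the highest knockout library, and the groups did not overlap. The log2 fold change was 1.53 (SE 0.24, adjusted p = 0.00391), a 2.90-fold higher level, and lay between 1.32 and 1.79 when single libraries were left out.

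Foxs1, a factor of pericytes that has also been seen in fetal Sertoli cells, had the highest level per length of all members, at 44.8 ± 2.42 RPKM in control and 57.5 ± 3.74 in knockout cells. Its normalised counts were 809, 887 and 893 in control and 1182, 1106 and 1038 in knockout cells, without overlap (log2 fold change 0.36, SE 0.07, adjusted p = 0.0104). In control cells it was followed by Foxo3 at 31.8 ± 0.52, Foxp4 at 20.2 ± 0.19, Sox4 at 18.5 ± 2.98, Foxk2 at 13.7 ± 0.25 and Foxo4 at 12.2 ± 0.86. Of these neighbours, Foxp4 and Sox4 overlapped between libraries and the others did not. Further down, the order was less sharp: the ranges of Foxn3, Foxj2, Sox12 and Foxo6, between 7.25 and 6.43, ran into one another, and Sox11 was last of the tested members at 0.169 ± 0.030. In knockout cells Foxs1 stayed in front of Foxo3, which was at 18.4 ± 2.52, and Foxk2 stood at 18.2 ± 1.14. Foxn2, of a subfamily with roles in the cell cycle, had 425, 467 and 456 normalised counts in control and 561, 553 and 536 in knockout cells, with a log2 fold change of 0.29 (SE 0.07, adjusted p = 0.0211). The call was lost without control replicate 1 or 3 or knockout replicate 1 or 2 (adjusted p = 0.0588 to 0.0760). Foxn3, a checkpoint factor, did not pass (-0.06, SE 0.06, adjusted p = 0.465).

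Among the Sox genes, the SOXD subfamily (Sox5, Sox6 and Sox13) lacks an activation domain and works with other SOX factors, in cartilage above all. Sox13 had 399.6, 344 and 393 normalised counts in control and 183, 173 and 229 in knockout cells. All knockout libraries were below the controls, with a log2 fold change of -0.96 (SE 0.13, adjusted p = 0.00253), just short of 2-fold. It was -1.02 without control replicate 2 and -1.09 without knockout replicate 3. Sox5 had 68.0, 82.3 and 79.7 normalised counts in control and 102, 122 and 104 in knockout cells (log2 fold change 0.51, SE 0.15, adjusted p = 0.0398). This call was lost when any library other than knockout replicate 3 was left out (adjusted p = 0.0636 to 0.129), and also with DESeq2 (adjusted p = 0.0655) and with no filter on low counts in edgeR (adjusted p = 0.0579). Sox6 had 456, 403 and 446 in control and 573, 578 and 408 in knockout cells. Knockout replicate 3 lay among the controls, and the test did not pass (0.26, SE 0.15, adjusted p = 0.215). Without knockout replicate 3 the log2 fold change of Sox6 was 0.41 (adjusted p = 0.00726). The SOXD sum was 7.06 ± 0.49 RPKM in control and 5.18 ± 0.04 in knockout cells. Sox13 made up 69.4% of it in control and 48.8% in knockout cells, Sox6 25.8% and 42.0%, and Sox5 4.79% and 9.22%. The ratio of Sox13 over Sox6 was 2.69 ± 0.05 in control and 1.22 ± 0.45 in knockout cells, without overlap.

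The SOXC genes (Sox4, Sox11 and Sox12) act in progenitor cells, and Sox4 takes part in shaping the fetal gonad. Sox4 had 1544, 1150 and 1220 normalised counts in control and 1045, 1002 and 948 in knockout cells. The groups were apart, though control replicate 1 stood well above the other controls, and the log2 fold change was -0.39 (SE 0.12, adjusted p = 0.0404). The call was lost when any library other than control replicate 2 was left out (adjusted p = 0.0618 to 0.109), and the log2 fold change was -0.24 without control replicate 1. Sox12 had 450.4, 455 and 412 normalised counts in control and 430.5, 421 and 589 in knockout cells (0.13, SE 0.14, adjusted p = 0.518, and -0.04 without knockout replicate 3). Sox11 was low, with 20.8, 24.2 and 16.8 in control and 2.93, 10.1 and 18.0 in knockout cells. The knockout libraries were spread widely and reached into the control range, and the log2 fold change of -0.99 (SE 0.53, adjusted p = 0.191) became -1.68 (adjusted p = 0.0330) without knockout replicate 3. In that fit Sox11 passed the filter through the control libraries only. Sox4 made up 72.7% of the SOXC sum in control and 65.8% in knockout cells, and the ratio of Sox12 over Sox4 was 0.368 ± 0.056 and 0.522 ± 0.128, without overlap.

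The other 23 members (16 Fox and 7 Sox) did not pass the filter and had at most 18 reads in any library. Of these, 10 had no more than 3 reads in every library: Foxa1, Foxd1, Foxf1, Foxh1, Foxi2, Foxn1, Foxr2, Sox3, Sox7 and Sox17. Sox17, Sox7 and Sox18 make up the SOXF subfamily of endothelial cells, and none of them had more than 4 reads in a library. With no filter on low counts in edgeR and also with DESeq2, 4 of the 23 passed an adjusted p of 0.05, and none of these 4 passed in edgeR with the close pairs of libraries summed (adjusted p = 0.0553 to 0.0797). No share of all genes is given for the unfiltered and DESeq2 fits, so these 4 calls cannot be set against a background. Foxa3, a factor of the liver and of germ cells, had 10, 18 and 8 reads in control libraries and 1, 2 and 0 in knockout libraries (adjusted p = 0.00984 by edgeR and 0.0101 by DESeq2). Foxl2, the granulosa cell factor, had 10, 10 and 7 reads in control and 1, 2 and 1 in knockout libraries (log2 fold change -2.53 by edgeR, SE 0.67, adjusted p = 0.0187 by edgeR and 0.0376 by DESeq2). Foxl2 overlaps Foxl2os by 12 bases on the opposite strand. Foxa3 and Foxl2 thus had no more than 2 reads in any knockout library. Foxd2, a factor of kidney and facial mesenchyme, had 1, 2 and 1 reads in control and 9, 11 and 8 in knockout libraries (2.81, SE 0.66, adjusted p = 0.00973 by edgeR and 0.0185 by DESeq2). Foxp2, a factor of the brain and lung, had 1, 1 and 2 reads in control and 5, 8 and 14 in knockout libraries (2.75, SE 0.73, adjusted p = 0.0194 by edgeR and 0.0319 by DESeq2). For both of these, all knockout libraries lay above all controls. Among the rest, Foxa2 had 3 to 7 reads in control and 2 to 7 in knockout libraries, Sox18 had 0 to 3 and 0 to 4, and Foxb2 and Foxd3 each had 0 in every control library and 0 to 4 in knockout libraries. Foxl1 had 5 to 10 reads in control and 2 to 3 in knockout libraries, Sox15 had 2 to 7 and 0 to 1, Sox30 had 4 to 5 and 3 to 11, Sox10 had 1 to 8 and 2 to 5, and Foxp3 had 4 to 14 and 3 to 12. Foxp3 overlaps Flicr, and Sox15 overlaps the end of Mpdu1 on the opposite strand. Differences of a few reads were not detectable at this depth. Foxd2os, a non-coding transcript beside Foxd2 on chromosome 4 that is no member and was chosen after its values were seen, had 1, 1 and 7 reads in control and 45, 39 and 37 in knockout libraries (log2 fold change 3.77, SE 0.58, adjusted p = 0.00344). It passed the filter only through the knockout libraries, where it was high, so these values describe it and are no independent test.

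**Figure D4:**
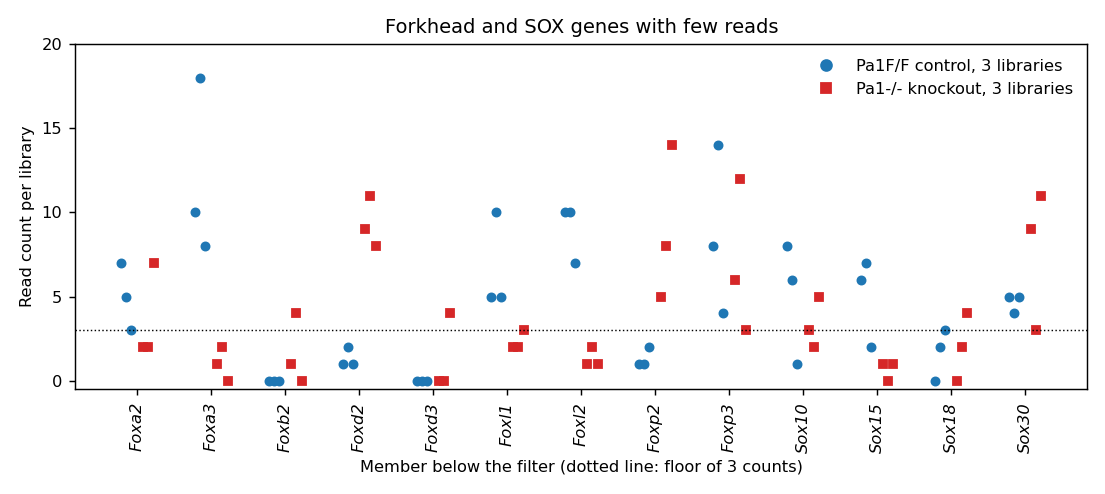
Read counts per library of the 13 members below the filter that had more than 3 reads in some library, for 3 control (circles) and 3 knockout libraries (squares), with a dotted line at 3 counts. Foxa3 and Foxl2 were higher in control libraries, and Foxd2 and Foxp2 in knockout libraries.

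Lists of genes known to depend on these factors, or related to them, were set beside the members. The lists were chosen with earlier results of these data known. Of 20 FOXM1-linked genes of G2 and mitosis, all of which were tested, 7 were higher and 0 were lower in knockout cells by edgeR, against 18.2% of all genes higher, with a median log2 fold change of 1.03. At an unadjusted p under 0.05, 13 were higher and 0 lower, and DESeq2 called 14 higher and 0 lower. No share of all genes is given for these settings, so these larger counts cannot be set against a background. With the counts of the close pairs of libraries summed, 1 was higher. Mki67, the proliferation antigen, was at 1.82 (SE 0.23, adjusted p = 0.00173), Ttk, a spindle checkpoint kinase, at 1.65, Top2a, a topoisomerase of dividing cells, at 1.59, and Ccna2, a cyclin, at 1.41. Summed over the list, the normalised counts were 5619, 9460 and 5602 in control and 12632, 12997 and 21278 in knockout libraries. Control replicate 2, the control with the most Foxm1, was also the highest control here. When it was left out, 13 of the 20 were higher, again with no share of all genes beside them. Of 25 tested FOXO-linked genes, 15 were lower and 2 higher, against 17.1% and 18.2% of all tested genes, with a median of -0.54. With the close pairs summed, 4 were lower and 1 higher. Fbxo32, a ubiquitin ligase of muscle atrophy, was at -1.77 (SE 0.25, adjusted p = 0.00238), Bnip3, of mitophagy, at -1.19, and Bcl2l11, a pro-apoptotic factor, at -0.96. Klf6, at 0.91 (SE 0.05, adjusted p = 8.84e-05), and Sesn3, at 0.37, were higher. Cdkn1b, Cdkn1a, Sod2 and Cat, well-known FOXO targets, did not pass the test.

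Of 14 tested genes of motile cilia linked to FOXJ1, 4 were higher, Foxj1 itself among them, and 1 was lower, against 18.2% and 17.1% of all tested genes, with a median of 0.45. Spag16, of the ciliary central pair, had 6, 3 and 1 reads in control and 94, 54 and 56 in knockout libraries (log2 fold change 4.38, SE 0.45, adjusted p = 0.000804). Tppp3, a tubulin-binding protein, was at 2.06 and Rsph1, of the radial spokes, at 1.11. Spag6l, also of the central pair, fell by 1.18 on the log2 scale, and this call was lost without control replicate 1 or 3. Another 11 listed genes of the set did not pass the filter. With at least 10 counts in every library, 3 of 12 tested genes of the set were higher, Foxj1 among them, and 0 were lower. Of 14 tested granulosa cell genes linked to FOXL2, 7 were lower and 2 higher, against 17.1% and 18.2% of all tested genes, with a median of -0.80. With the close pairs summed, 6 were lower and 1 higher. Nr0b1, an orphan nuclear receptor of the gonads, was at -4.51 (SE 0.50, adjusted p = 0.00107) and Cyp11a1, of steroid synthesis, at -3.59. Bmp2 (3.38) and Wnt4 (1.88), secreted signals of the ovary program, were higher. Cyp11a1 and Star of this list are also Leydig cell markers, and Inha and Fshr are also Sertoli cell markers. Among the other HMG-box genes and the TLE co-repressors, 4 of 15 were lower and 0 higher by edgeR, against 17.1% and 18.2% of all tested genes, with a median of -0.19. With the close pairs summed, 2 were lower. The lower genes were Tcf7 (-1.01), Bbx (-0.93), Hbp1 (-0.48) and Tox4 (-0.39). At an unadjusted p under 0.05, 6 were lower and 1 higher, DESeq2 called 4 lower and 0 higher, and without knockout replicate 3 edgeR called 7 lower and 1 higher. These counts have no share of all genes beside them. Of 6 tested cartilage genes linked to the SOXD factors, Col9a3 (1.73, adjusted p = 0.0204) was higher and Col11a2 (-0.79, adjusted p = 0.0404) was lower, 1 gene each way against 18.2% and 17.1% of all tested genes, with a median of -0.33. With the close pairs summed, 0 cilium genes and 0 cartilage genes were lower, and 4 cilium and 0 cartilage genes were higher. The call of Col11a2 was lost when any library other than knockout replicate 3 was left out, and that of Col9a3 without control replicate 1 or 3.

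**Figure D5:**
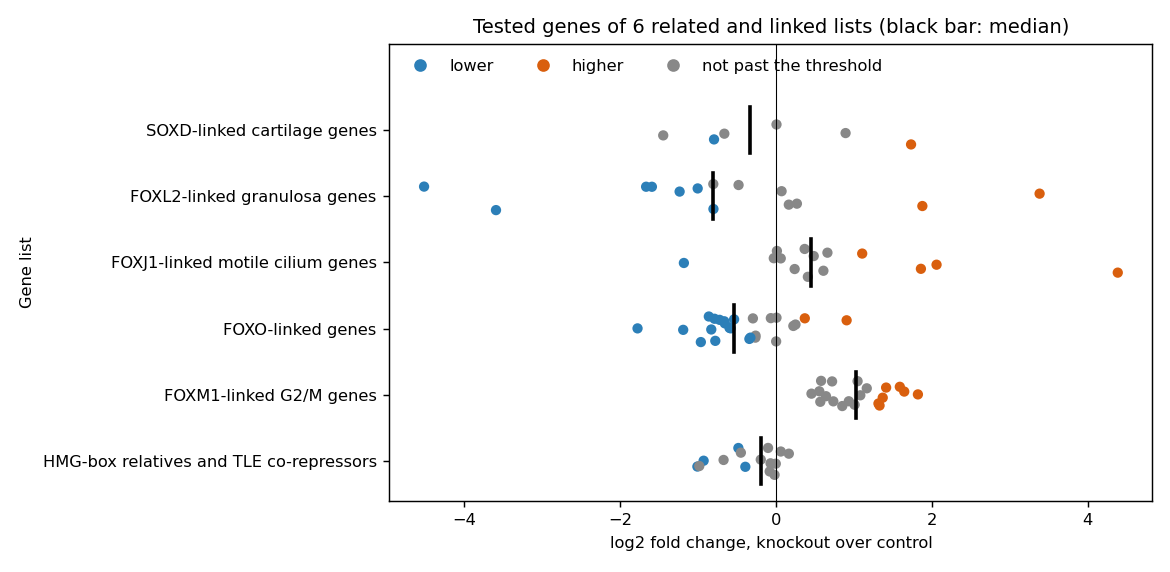
log2 fold changes of knockout over control for the tested genes of 6 lists, with a black bar at each median and colour by the test at an adjusted p under 0.05. The FOXM1-linked list lay to the right of 0, with a median of 1.03, and most FOXO-linked genes to the left, with a median of -0.54.

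Some markers of other cells passed the test, and their part in the results above was not tested. The counts of each list stand against 17.1% of all tested genes lower and 18.2% higher. In parentheses, the same counts are given at an unadjusted p under 0.05 and for DESeq2, which was run on all listed genes, in the order of the sentence. The shares hold for the counts outside the parentheses only. Of the myoid and smooth muscle markers, 2 of 9 were higher and 0 lower (unadjusted p: 3 and 0, DESeq2: 2 and 0), with summed normalised counts of 5511 to 6570 in control and 16395 to 24651 in knockout libraries, led by Acta2 (2.15). Of 8 mesothelial markers, 5 were higher and 0 lower (unadjusted p: 5 and 1, DESeq2: 4 and 0), at 351 to 440.4 in control and 751 to 880 in knockout libraries, Upk3b (4.98) among them. Of 11 macrophage markers, 9 were lower and 0 higher (unadjusted p: 10 and 0, DESeq2: 11 and 0), at 1942 to 2110 in control and 1130 to 1391 in knockout libraries. Of 5 Leydig cell markers, 4 were lower and 0 higher (unadjusted p: 4 and 0, DESeq2: 4 and 0), at 12404 to 13755 and 2609 to 4907, although Cyp17a1 and Insl3, which define these cells, had at most 3 and 2 reads in any library. Of 8 endothelial genes linked to SOXF, 4 were lower and 1 higher (unadjusted p: 5 and 1, DESeq2: 4 and 1), at 3282 to 3994 in control and 2331 to 2965 in knockout libraries, with Pecam1 at -1.73 and Cldn5 at no more than 1 read in any library. Of 9 fibroblast and pericyte markers, cells in which Foxs1 and the Foxc genes are also used, 3 were lower and 0 higher (unadjusted p: 3 and 0, DESeq2: 3 and 0), at 36303 to 43401 and 21819 to 38986. The Schwann cell markers had 3 of 7 lower and 0 higher (unadjusted p: 3 and 0, DESeq2: 3 and 1), at 983 to 1147 in control and 666 to 1158 in knockout libraries. Of the germ cell lists, 3 of 4 spermatogonia markers were lower and 0 higher (unadjusted p: 3 and 0, DESeq2: 2 and 0), at 2848 to 3264 and 1538 to 2940. The 6 spermatocyte markers had 0 calls (0 also at an unadjusted p and by DESeq2), at 916 to 976 and 759 to 1118, and the 2 spermatid markers had 0 calls (1 higher at an unadjusted p and 0 by DESeq2), at 239 to 262 and 259.6 to 299.6.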

How the data were processed

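The 6 RNA-seq libraries were grouped by genotype from their labels. The authors made libraries with the NEBNext Ultra kit, aligned reads to GRCm38 with HISAT2 2.1.0 and counted reads per gene with HTSeq 0.6.0 (versions per the submitters' processing notes), and deposited the counts without normalization. The strand setting is not given in the sources used here. The columns of the authors' own comparison (mean signal, fold change, p-values) were not used.

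Genes were filtered with filterByExpr (minimum count 10, minimum total count 15), scaled with TMM (factors 0.990 to 1.03) and tested with the quasi-likelihood test of edgeR 4.0.16 (R 4.3.3), with p-values adjusted over 14919 genes. limma 3.58.1 and DESeq2 1.42.0 served alternatives and Python 3.11.15 made tables. The standard error is the absolute log2 fold change over the square root of edgeR's F. Exon lengths came from GENCODE (GRCm39) by gene ID for 48 of 48 members, and no coordinates were taken from it. TMM assumes that most genes do not change, and a global shift of RNA per cell is not seen by it. On simulated counts (200 genes changed by a log2 fold change of 2, 14875 tested) edgeR recovered 96.5%, and 4.93% of its calls were unchanged genes. DESeq2, run there on 28262 genes, also recovered 96.5%, and 13.5% of its calls were unchanged genes. The simulated libraries were drawn independently, and the changed genes were picked among those with more counts. These rates thus do not carry over to smaller changes or to the close pairs of libraries.

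Named were every member past the threshold, the 5 highest by length, untested members by range, and up to 4 called genes per list. Other members not past the threshold were added to complete subfamilies. Sesn3, the 4 FOXO targets not past the test, Gmds, Foxd2os and markers beyond the first 3 of a list were chosen after their values were seen. Members and lists were chosen with earlier results of these data known. Reads without molecular identifiers are not independent molecules, so floors cover counting error only.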

Additional observations from a re-analysis of the deposited data

How the results depend on the processing

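The 15 named members kept their direction under 14 alternatives each. Of 210 values, 181 stayed on the same side of the threshold and 29 lost the call, 11 of them with the close pairs of libraries summed. All 15 had passed the test without overlap of the genotypes, so their direction could hardly change in these fits. The test against a 2-fold change was not among the 14. With control replicates 1 and 3 and knockout replicates 1 and 2 summed, which leaves 2 libraries per genotype, 3 members were lower and 1 higher (Foxc1, Foxo3, Foxk1 and Foxj1, adjusted p = 0.0382 to 0.0454), against 8 and 7 with all 6 libraries, and 1 was lower and 1 higher by at least 2-fold. In that setting 2 HMG-box relatives, 4 FOXO-linked genes, 0 cilium genes and 0 cartilage genes were lower, and 1 FOXM1-linked, 1 FOXO-linked, 1 FOXL2-linked and 0 cartilage genes were higher. The count of members changed by 2-fold or more (2 lower, 2 higher) was 4 and 4 both with DESeq2's Wald test and with no filter, where Foxa3, Foxl2, Foxd2 and Foxp2 are also tested, and 1 and 0 in edgeR's test against a 2-fold change. FOXM1-linked genes higher numbered 14 with DESeq2 and 13 with no filter, against 7. No share of all genes is given for the DESeq2 and unfiltered fits, so their counts cannot be set against a background. The 1 lower cilium gene became 0 with DESeq2 or with at least 10 counts in every library, and the 1 lower cartilage gene became 0 with DESeq2 or no filter. Sox5 lost its call with DESeq2 (adjusted p = 0.0655) and with no filter (adjusted p = 0.0579). Causes of these shifts were not tested. With single libraries left out, 7 to 9 members were lower and 5 to 8 higher, and 2 to 5 were lower by 2-fold or more, 5 without knockout replicate 3 (Foxc1, Foxo6, Sox13, Foxc2 and Sox11). In that fit Foxc2 and Sox11 passed the filter through the control libraries only. Members higher by 2-fold or more stayed at 2 to 2. Lower genes ranged from 4 to 7 (HMG-box relatives), 11 to 16 (FOXO-linked), 0 to 2 (cilium) and 0 to 2 (cartilage), and higher genes from 0 to 1 (HMG-box relatives), 7 to 13 (FOXM1-linked), 2 to 3 (FOXO-linked) and 0 to 1 (cartilage). Size factors of DESeq2 or library size alone changed no call of a named member and moved the median of all genes by at most 0.01. Deviations of libraries with the same replicate number correlated at 0.104, -0.159 and -0.175. The largest value between a control and a knockout library was 0.211, for control replicate 2 and knockout replicate 3. With 3 libraries per genotype, these values cannot tell whether the numbers pair the samples. With the replicate number as a block, Foxn2 (adjusted p = 0.0740) and Sox5 (adjusted p = 0.0742) lost the call, the 1 lower cilium gene and the 1 lower and 1 higher cartilage genes became 0, and the other counts stayed within 1.5 times. The 23 members below the filter had at most 18 reads in any library, and depth limits what can be said of them.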
